A study of Arabidopsis thaliana with 9 samples.

Results

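Pectin-modifying enzymes and their inhibitors were examined in Arabidopsis thaliana leaf mRNA as 93 of the 33610 genes of the deposited table. The members were the genes whose deposited description names pectin lyase, pectate lyase, pectin methylesterase, pectinesterase or pectin acetylesterase (the last written as 1 word) and whose mean level over the 9 libraries was at least 0.1 FPKM, a fragment count divided by gene length and by library size. The descriptions matched 244 genes, of which 124 had no counts in any library and 151 in all fell below the limit. The lowest members were AT2G43870 at 0.102 and ATPMEPCRD at 0.106 FPKM, and the highest genes left out were QRT1 at 0.0995 and AT1G55770 at 0.0918 FPKM. The overall mean level chose the members, so their expression in leaves is a description and not a result.

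The leaves were detached rosette leaves of uninfected 30-day-old plants grown with 13 h of light and 11 h of dark. The 3 genotypes, with 3 libraries each, were wild-type Col-0 (WT), VQ28KO12, which the labels call a VQ28 knockout, and VQ28OE9, which they call a VQ28 overexpressor. Each line is named by a single number in the labels, so a result in it is a result in that line, and neither the promoter behind the overexpression nor the nature of the knockout is given in the sources used here. Whether the 3 libraries of a line or of WT are from different plants is not in the labels, so a p-value below reflects library-to-library spread and may not reflect plants.

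Pectin is the acidic polysaccharide of the plant primary wall and of the layer that joins neighbouring cells, and its main chain is homogalacturonan, which is laid down with most of its acid groups methylated. Pectin methylesterases remove the methyl groups, after which the chain can be cross-linked by calcium or cut by polygalacturonases, which hydrolyse it, and by pectate lyases, which cleave it by elimination. Inhibitor proteins bind and block the methylesterases, and pectin acetylesterases remove acetyl groups from the same chain. In leaves these enzymes are known for roles in wall stiffness, guard cell movement and the outcome of attack by fungi, nematodes and viruses. VQ proteins, to which the product of VQ28 belongs, are cofactors that bind WRKY transcription factors.

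The libraries held 64552605 to 95223547 deposited count units, and each showed between 90 and 93 of the 93 members above 0. Low counts piled up at multiples of 4, so a sequenced fragment may be worth about 4 units, which the sources do not state. VQ28 stood at 8.70, 0.456 and 6.72 FPKM in WT, at 8.36, 10.1 and 0 FPKM in the libraries labelled VQ28KO12, and at 6244, 4665 and 5942 FPKM in VQ28OE9. Its mRNA in replicates 1 and 2 of VQ28KO12 goes against a knockout at the level of mRNA, so the name VQ28KO12 stands for the label only. WT replicate 3 and VQ28OE9 replicate 3 stood apart from the other 7 libraries on the second principal component (-25.8 and -30.2, with the others between -3.9 and 17.6), and counts of changed members are therefore also given without both. Leaf mesophyll markers (RBCS1A, CAB1, LHCB2.1 and RCA) summed to between 33324 and 45173 FPKM in every library, and the 5 flower and pollen markers to at most 0.264 FPKM.

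By the descriptions and gene ontology terms in the deposited table the members fell into 26 pectin methylesterases, 20 inhibitors, 22 polygalacturonases, 14 pectate lyases and 11 pectin acetylesterases. The members most abundant in leaf mRNA were few. Averaged over the 9 libraries, 10 members held 66.0% of the summed FPKM of all 93. Of the inhibitor total, AT5G62350 alone held 56.2%. Of the pectin acetylesterase total, PAE11 held 70.8%. The methylesterase total was spread more widely, with 56.9% in AT3G49220, PME44 and AT3G43270 together. Among polygalacturonases AT3G16850 led with 30.4% of its class, and among pectate lyases AT3G55140 led with 19.4%. The inhibitor class carries a limit of annotation, since plant proteins of this fold include inhibitors of invertase as well as of pectin methylesterase, and the descriptions do not separate them.

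The classes stood in different orders among the genotypes by their summed level. Methylesterases summed to between 533 and 568 FPKM in WT, 590 and 643 in VQ28KO12, and 508 and 557 in VQ28OE9. Every VQ28KO12 library thus lay above every library of the other genotypes, while WT and VQ28OE9 overlapped. Inhibitors summed to between 317 and 479 FPKM in WT, 508 and 721 in VQ28KO12, and 360 and 443 in VQ28OE9. Here too the 3 VQ28KO12 libraries were the 3 highest. Pectin acetylesterases followed another order, with 162 to 189 FPKM in WT, 132 to 171 in VQ28KO12 and 213 to 219 in VQ28OE9, so that the VQ28OE9 libraries were the highest. That order does not hold for each member of the class. PAE11 was highest in VQ28OE9, at 162 to 177 FPKM against 104 to 137 in WT. AT3G05910, next in abundance, was lowest in VQ28OE9, at 12.8 to 16.1 FPKM against 18.5 to 25.0 in WT. Polygalacturonases and pectate lyases overlapped among all 3 genotypes, at 77.4 to 107 FPKM and at 74.9 to 119 FPKM. These sums were not tested. The leading members named above set most of the methylesterase, inhibitor and pectin acetylesterase sums.

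**Figure D1:**
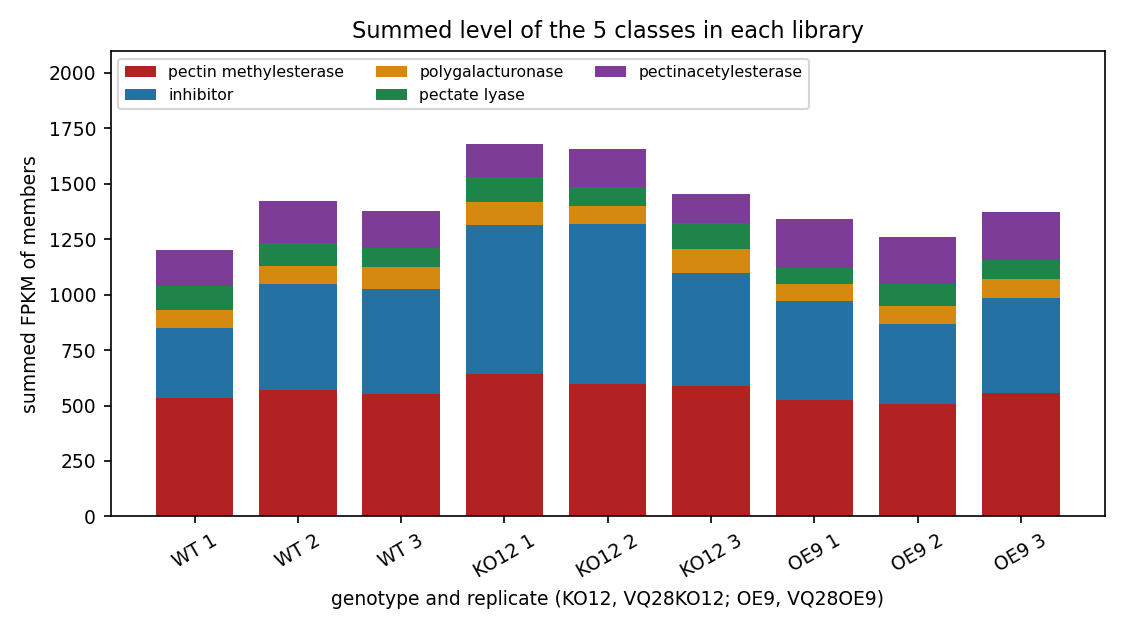
Stacked bars give the summed FPKM of the 93 members in each of the 9 libraries, with 1 colour per class and the library's genotype and replicate on the horizontal axis. The inhibitor part is tallest in VQ28KO12 (508 to 721 FPKM) and the pectin acetylesterase part is tallest in VQ28OE9 (213 to 219 FPKM).

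Differences between genotypes were tested with edgeR's quasi-likelihood test on the deposited count units of the 16050 genes with a mean of at least 1 FPKM. Changed means a p below 0.05 after Benjamini-Hochberg adjustment over all of them. Of the 93 members 66 were tested, and the other 27, between 0.1 and 1 FPKM, are described at the end. Log2 fold changes are given with their standard error (SE). Levels are FPKM, as mean ± SD with n = 3 libraries per genotype. VQ28OE9 is set against WT and against VQ28KO12 below, and VQ28KO12 against WT, so that each group of libraries serves in 2 comparisons and these are not independent of each other.

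In VQ28OE9 against WT, 3 of the 66 tested members changed, or 4.55% of them, against 2.31% of all tested genes. All 3 were pectin methylesterases. PME41 rose, and PME3 and PME44 fell. Log2 fold changes were positive in 23 and negative in 43 of the 66 members, and their median was -0.14. Over all tested genes 49.6% were positive, with a median of -0.0. At an unadjusted p under 0.05 there were 19 members, against 17.4% of all tested genes. DESeq2 called 7 members, against 8.46% of all genes. The 3 VQ28OE9 libraries were all above the WT libraries in 4 members and all below them in 10, against 13.0% and 9.24% of all tested genes. Without WT replicate 3 and VQ28OE9 replicate 3, 2 members changed, while the number of changed genes over the whole table went from 370 to 94.

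PME3 (AT3G14310, chromosome 3, 4771902 to 4775119, minus strand) encodes a methylesterase known as the partner of a cellulose-binding protein that cyst nematodes secrete into roots, and as an enzyme that favours infection by Botrytis. Its levels were 43.0, 38.8 and 66.4 FPKM in WT, 39.4, 47.7 and 51.0 in VQ28KO12, and 11.5, 16.4 and 10.6 in VQ28OE9. All 3 VQ28OE9 libraries were below every library of the other 2 genotypes, which overlapped each other. The mean was 12.8 ± 3.12 FPKM in VQ28OE9 against 49.4 ± 14.9 in WT and 46.1 ± 5.98 in VQ28KO12. The log2 fold change was -1.98 ± 0.24 against WT (edgeR adjusted p = 0.011) and -1.83 ± 0.24 against VQ28KO12 (adjusted p = 0.00659). As a share of the methylesterase total, PME3 held 6.84% to 12% in WT, 6.13% to 8.64% in VQ28KO12 and 1.91% to 3.23% in VQ28OE9.

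PME41 (AT4G02330, chromosome 4, 1032413 to 1035037, plus strand; the RefSeq table lists it as ATPMEPCRB) encodes a methylesterase known from work on chilling tolerance and brassinosteroids. Its levels were 4.41, 6.26 and 3.01 FPKM in WT, 4.93, 3.66 and 2.91 in VQ28KO12, and 22.9, 20.9 and 17.7 in VQ28OE9. All 3 VQ28OE9 libraries were above every other library, and WT and VQ28KO12 overlapped. The mean was 20.5 ± 2.65 FPKM against 4.56 ± 1.63 in WT, or 2.15 ± 0.26 higher on the log2 scale (edgeR adjusted p = 0.011). Against VQ28KO12, at 3.83 ± 1.02 FPKM, it was 2.45 ± 0.27 (adjusted p = 0.00387). Its share of the methylesterase total was 0.544% to 1.1% in WT and 3.17% to 4.35% in VQ28OE9, so it stayed a small part of the class. The neighbouring methylesterase gene AT4G02320 was barely detected, at 0.0335 to 0.570 FPKM in VQ28OE9 and 0 to 0.380 in WT.

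PME44 (AT4G33220, chromosome 4, 16022439 to 16026360, plus strand) was among the most abundant methylesterase mRNAs. It stood at 152, 103 and 117 FPKM in WT, at 143, 124 and 142 in VQ28KO12, and at 68.0, 86.1 and 73.3 in VQ28OE9. The VQ28OE9 libraries lay below all 6 others. The mean was 75.8 ± 9.29 FPKM against 124 ± 25.5 in WT and 137 ± 10.7 in VQ28KO12. On the log2 scale it was -0.73 ± 0.15 against WT (edgeR adjusted p = 0.0423) and -0.83 ± 0.15 against VQ28KO12 (adjusted p = 0.0182). The change against WT passed in 7 of 19 alternative settings. It was lost when any 1 library other than WT replicate 2 was left out, with edgeR adjusted p up to 0.152. The change against VQ28KO12 passed in 16 of the 19. It was lost without VQ28KO12 replicate 1, VQ28KO12 replicate 3 or VQ28OE9 replicate 1, with edgeR adjusted p up to 0.0679. PME3 and PME41 passed in all 19 alternative settings of both comparisons.

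**Figure D2:**
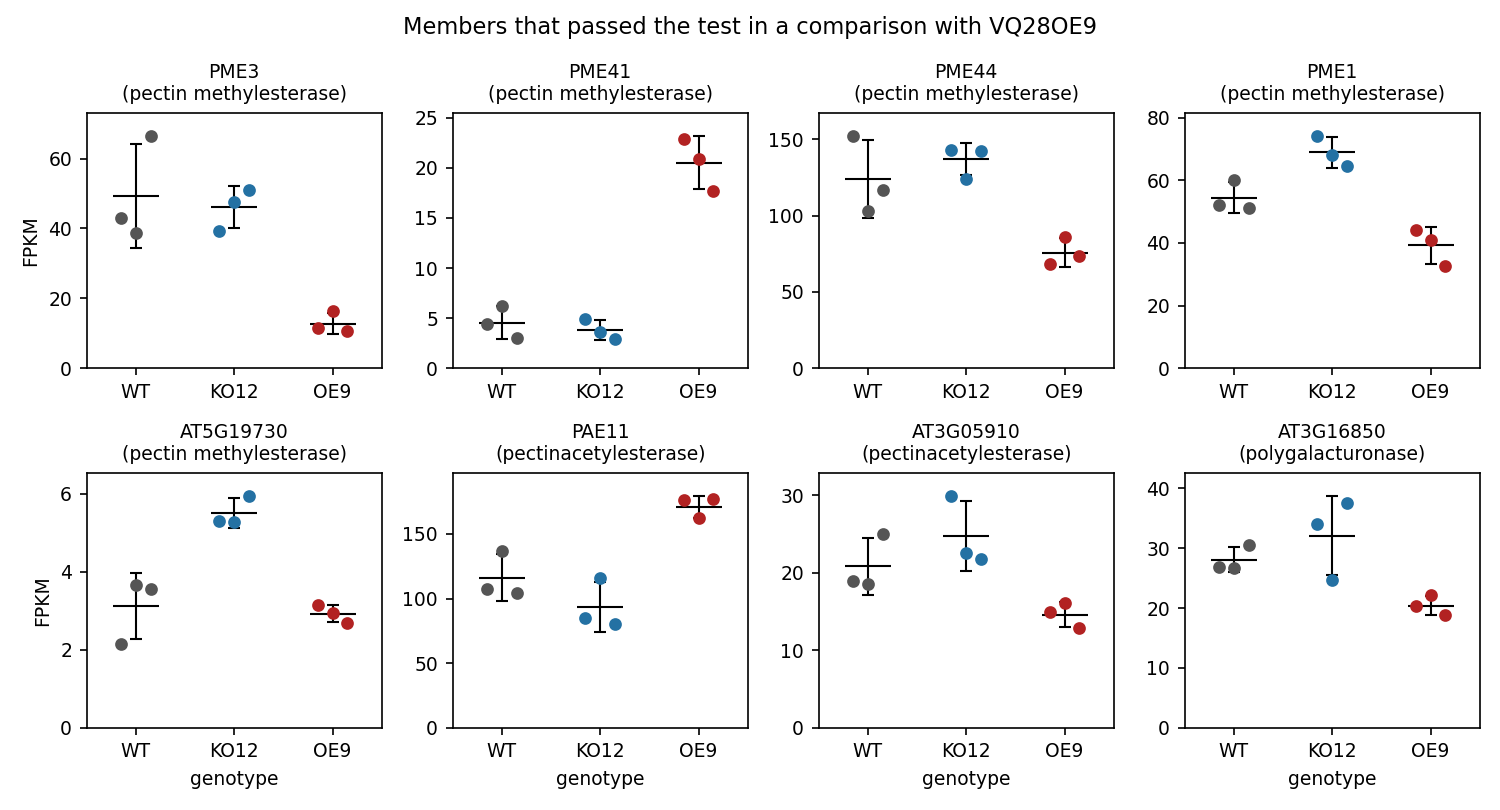
Points give the FPKM of each library for the 8 members that changed in a comparison with VQ28OE9, grouped by genotype (KO12, VQ28KO12; OE9, VQ28OE9), with the mean as a bar and the SD over 3 libraries as whiskers. The VQ28OE9 points lie apart from both other genotypes in PME3 (10.6 to 16.4 FPKM), PME41 (17.7 to 22.9 FPKM) and PAE11 (162 to 177 FPKM), among others.

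The 250 bases before the RefSeq gene start are shown for PME3 and PME44, the methylesterases that fell against both other genotypes, because WRKY factors, the partners of VQ proteins, bind the W-box. The sequences are from RefSeq's TAIR10.1 assembly and run 5′ to 3′ on the strand of the gene. Capitals mark the W-box core TTGAC, searched on both strands (GTCAA on the other strand). The windows are chr3:4775259-4775508 on the minus strand for PME3 and chr4:16022019-16022268 on the plus strand for PME44.
PME3: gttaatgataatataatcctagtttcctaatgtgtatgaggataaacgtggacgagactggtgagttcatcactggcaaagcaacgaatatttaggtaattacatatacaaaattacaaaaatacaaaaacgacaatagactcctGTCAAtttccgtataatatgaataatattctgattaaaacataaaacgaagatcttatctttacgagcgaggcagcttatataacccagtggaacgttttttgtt
PME44: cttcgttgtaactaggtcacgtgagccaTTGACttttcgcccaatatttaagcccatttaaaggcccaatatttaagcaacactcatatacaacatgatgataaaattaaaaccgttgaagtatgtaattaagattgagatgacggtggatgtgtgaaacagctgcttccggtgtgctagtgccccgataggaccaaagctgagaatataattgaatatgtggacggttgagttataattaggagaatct
Each window held 1 core, which began 105 bases before the gene start in PME3 and 222 in PME44. The core is frequent: 44.9% of the 27443 protein-coding genes of the assembly had it in this window, as did 40 of the 93 members (43.0%) and 5 of the 8 members that changed. The G-box CACGTG, a motif bound by basic leucine zipper and basic helix-loop-helix factors that reads the same on both strands, was found in 6.49% of all these windows and in 5 of the 93 members (5.38%). PME44 was the 1 of the 8 changed members with a G-box, which began 233 bases before the gene start and did not overlap the W-box core. Such matches describe the letters of the window and do not show binding.

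The other classes gave no change in VQ28OE9 against WT by edgeR. Of all tested genes 2.31% changed, 17.4% had an unadjusted p under 0.05 and DESeq2 called 8.46%. Of the 14 tested inhibitors 0 changed, 4 had an unadjusted p under 0.05, DESeq2 called 1 and limma 0. The inhibitor with the smallest p, AT3G62820, stood at 18.1, 20.9 and 29.4 FPKM in WT and at 34.1, 33.7 and 41.7 FPKM in VQ28OE9, groups that did not overlap. The log2 fold change of 0.66 ± 0.19 had an edgeR adjusted p = 0.108. Of 14 polygalacturonases 0 changed, 2 had an unadjusted p under 0.05 and neither DESeq2 nor limma called any. AT3G16850 had the smallest p among them, at -0.48 ± 0.16 on the log2 scale (adjusted p = 0.15).

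Pectate lyases also had 0 of 11 changed and none called by DESeq2 or limma. An unadjusted p under 0.05 was found in 2, against 17.4% of all tested genes. The fitted log2 fold change was negative in 9 of the 11, and its median was -0.17. PMR6, a pectate lyase-like gene whose loss gives resistance to powdery mildew, had the smallest p. It stood at 7.68, 7.69 and 5.85 FPKM in WT and at 5.72, 5.09 and 3.13 in VQ28OE9. The groups nearly touched, and its log2 fold change of -0.63 ± 0.23 did not pass (edgeR adjusted p = 0.195). Of 9 pectin acetylesterases 0 changed and 4 had an unadjusted p under 0.05, against 17.4% of all tested genes. DESeq2 called AT3G05910 and PAE11, against 8.46% of all genes, and limma called none. Their log2 fold changes were positive in 3 and negative in 6, with a median of -0.28. The 3 VQ28OE9 libraries of PAE11 were above all WT libraries, by 0.54 ± 0.16 on the log2 scale (adjusted p = 0.118).

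Some guard cell and epidermis markers moved with the comparisons of VQ28OE9 and are given beside them. Of the 5 guard cell markers 4 were tested and both FAMA (5.30 to 6.39 FPKM in WT, 8.92 to 12 in VQ28OE9) and HT1 (1.44 to 2.21 and 3.98 to 5.01) rose against WT. KAT1 (log2 fold change -0.23 ± 0.26, edgeR adjusted p = 0.736) and MYB60 (0.78 ± 0.30, adjusted p = 0.21) did not pass. The summed level of the 5 was 13.9 to 15.5 FPKM in WT, 17.0 to 23.5 in VQ28KO12 and 19.7 to 24.0 in VQ28OE9, and EPF1 was at 0 in all WT and VQ28OE9 libraries. Of the 4 epidermis markers 2 were tested, and ATML1 fell, with 9.06 to 11.6 FPKM in WT, 13.3 to 15.3 in VQ28KO12 and 3.29 to 4.94 in VQ28OE9. Its log2 fold change was -1.21 ± 0.17 against WT (edgeR adjusted p = 0.013) and -1.69 ± 0.17 against VQ28KO12 (adjusted p = 0.00387). PDF2 did not pass (-0.41 ± 0.22 against WT, adjusted p = 0.395). Of the untested epidermis markers GL2 stood at 0.258 to 0.583 FPKM in WT and 0.390 to 0.512 in VQ28OE9, and PDF1 lay the other way from ATML1, at 0 to 0.182 in WT and 0.251 to 0.445 in VQ28OE9. The sum of the 4 was 16.9 to 20.2 FPKM in WT, 22.5 to 26.5 in VQ28KO12 and 10.1 to 13.8 in VQ28OE9. In whole leaves, fewer cells of a type and less RNA per cell cannot be told apart, and the part of these markers in the member results was not tested. None of the 4 mesophyll and 5 vascular markers, all tested, changed in any of the 3 comparisons, nor did CDKB2;1, the 1 tested marker of the 3 for dividing cells.

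**Figure D3:**
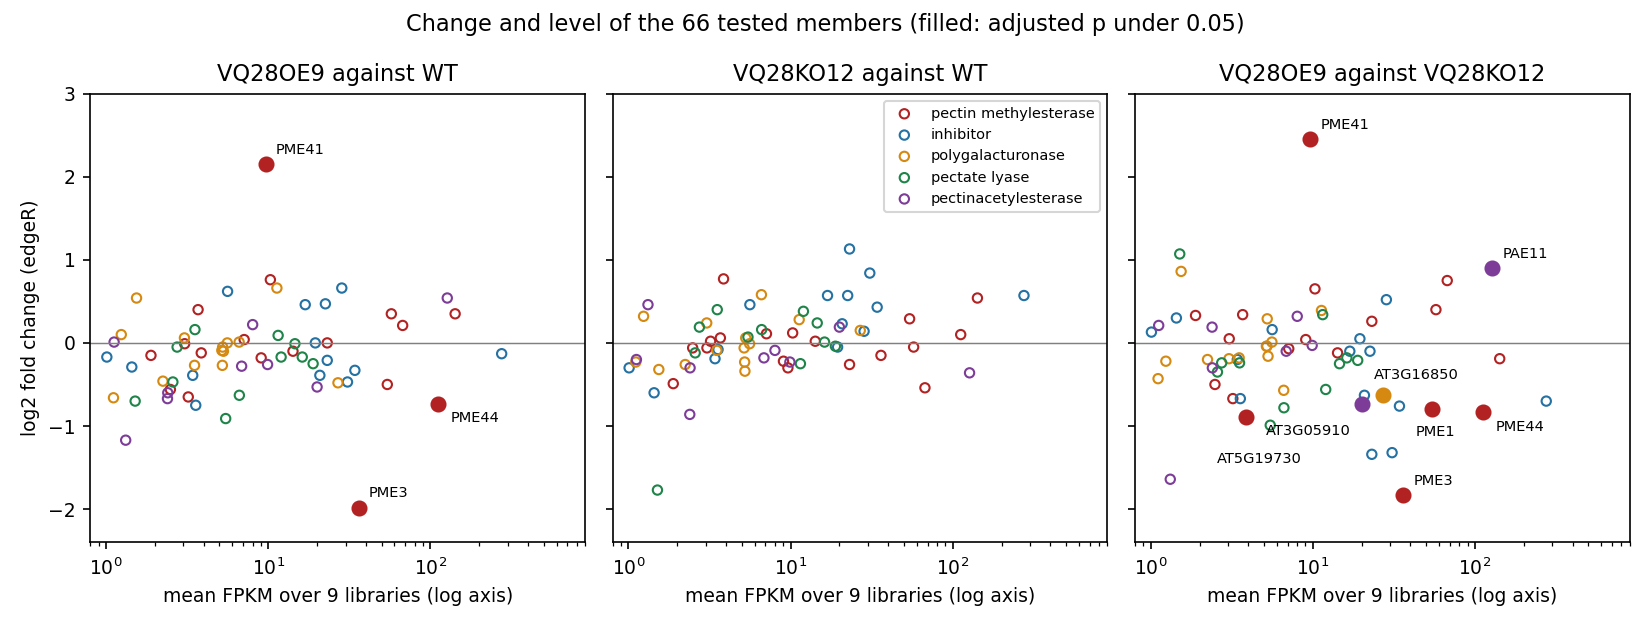
Each point is 1 of the 66 tested members, with its mean FPKM over 9 libraries on a log axis and its edgeR log2 fold change on the vertical axis, in 1 panel per comparison. Filled points had an adjusted p under 0.05, and these number 3 in VQ28OE9 against WT, 0 in VQ28KO12 against WT and 8 in VQ28OE9 against VQ28KO12.

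In VQ28OE9 against VQ28KO12, 8 of the 66 tested members changed, or 12.1%, against 6.33% of all tested genes. Of the 8, 2 were higher in VQ28OE9, PME41 and PAE11. The other 6 were lower: the methylesterases PME3, PME44, PME1 and AT5G19730, the pectin acetylesterase AT3G05910 and the polygalacturonase AT3G16850. Of all tested genes 3.71% were higher and 2.62% lower. There were 24 positive and 42 negative log2 fold changes among the 66, with a median of -0.17, against 49.0% positive and a median of -0.01 over all tested genes. At an unadjusted p under 0.05 there were 22 members, against 21.2% of all tested genes. DESeq2 called 16, against 12.2% of all genes. The VQ28OE9 libraries were all above those of VQ28KO12 in 8 members and all below them in 18, against 12.1% and 14.4% of all tested genes. The count of changed members was 7 without WT replicate 3 and VQ28OE9 replicate 3, and it was 2, 3 and 3 without VQ28KO12 replicate 1, VQ28KO12 replicate 3 and VQ28OE9 replicate 1. The number of changed genes over the whole table went from 1016 to 131, 167 and 326 in the same fits.

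PME1 (AT1G53840, chromosome 1, 20101445 to 20103667, plus strand) is a methylesterase gene that lies next to its relative PME2. It stood at 74.1, 68.1 and 64.6 FPKM in VQ28KO12, 52.0, 60.0 and 51.3 in WT, and 44.1, 41.0 and 32.5 in VQ28OE9. The 3 genotypes formed 3 groups that did not overlap, with WT between the lines. The mean was 39.2 ± 6.01 FPKM in VQ28OE9 and 68.9 ± 4.80 in VQ28KO12, a difference of -0.79 ± 0.13 on the log2 scale (edgeR adjusted p = 0.0133). The call was lost without VQ28KO12 replicate 1 (adjusted p = 0.0578). Against WT, at 54.5 ± 4.85 FPKM, VQ28OE9 did not pass by edgeR (-0.50 ± 0.13, adjusted p = 0.0773) and was called by DESeq2. PME2 was much lower, at 3.48, 5.30 and 2.49 FPKM in VQ28KO12 and 2.09, 2.77 and 2.06 in VQ28OE9, groups that overlapped.

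PAE11 (AT5G45280, chromosome 5, 18345595 to 18349695, plus strand) gave the most abundant pectin acetylesterase mRNA. It stood at 84.6, 116 and 80.5 FPKM in VQ28KO12, 107, 137 and 104 in WT, and 176, 162 and 177 in VQ28OE9. The VQ28OE9 libraries were above all others, and VQ28KO12 and WT overlapped. The mean was 171 ± 8.44 FPKM against 93.6 ± 19.3 in VQ28KO12, a difference of 0.90 ± 0.16 on the log2 scale (edgeR adjusted p = 0.0166). The call was lost without VQ28KO12 replicate 1, VQ28KO12 replicate 3 or VQ28OE9 replicate 1, with adjusted p up to 0.0709.

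AT3G05910 (chromosome 3, 1764318 to 1767620, minus strand), next in abundance among the pectin acetylesterases, went the other way. It stood at 29.9, 22.5 and 21.8 FPKM in VQ28KO12, 18.9, 18.5 and 25.0 in WT, and 14.9, 16.1 and 12.8 in VQ28OE9. The VQ28OE9 libraries were the lowest of the 9. Its log2 fold change against VQ28KO12 was -0.73 ± 0.16 (edgeR adjusted p = 0.0315), and it was lost without any 1 of VQ28KO12 replicates 1 and 3 and the 3 VQ28OE9 libraries, with adjusted p up to 0.113. The better characterised leaf enzymes PAE8 and PAE9, which act on acetylated leaf pectin, did not pass by edgeR, and DESeq2 called PAE9. PAE8 stood at 9.04 ± 1.11 FPKM in VQ28OE9 and 7.39 ± 1.18 in VQ28KO12 (adjusted p = 0.292). PAE9 was low, at 2.67, 1.79 and 1.44 FPKM in VQ28KO12 and 1.01, 0.592 and 0.251 in VQ28OE9 (log2 fold change -1.64 ± 0.52, adjusted p = 0.102).

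AT5G19730 (chromosome 5, 6670458 to 6673282, plus strand), a methylesterase gene of modest level, stood at 5.31, 5.27 and 5.95 FPKM in VQ28KO12. In WT it stood at 2.16, 3.67 and 3.56 FPKM and in VQ28OE9 at 3.15, 2.94 and 2.70. The VQ28KO12 libraries were above the 6 others, while WT and VQ28OE9 overlapped. Its log2 fold change was -0.89 ± 0.22 in VQ28OE9 against VQ28KO12 (edgeR adjusted p = 0.0459) and -0.12 ± 0.22 against WT (adjusted p = 0.856). The difference between the lines passed in 8 of 19 alternative settings and was lost when any VQ28KO12 or VQ28OE9 library or WT replicate 2 was left out, with adjusted p up to 0.142.

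AT3G16850 (chromosome 3, 5748570 to 5751297, plus strand), the leading polygalacturonase, stood at 34.1, 24.7 and 37.6 FPKM in VQ28KO12, 26.9, 26.7 and 30.6 in WT, and 20.4, 22.1 and 18.8 in VQ28OE9. The 3 values in VQ28OE9 were the lowest. The log2 fold change against VQ28KO12 was -0.63 ± 0.16 (edgeR adjusted p = 0.0481), and it passed in 7 of 19 alternative settings, with adjusted p up to 0.153. It was lost without any 1 library other than VQ28KO12 replicate 2 and WT replicate 3. Among the other polygalacturonases AT1G48100 stood at 14.2 ± 3.41 FPKM in VQ28OE9 and 11.0 ± 3.97 in VQ28KO12 (adjusted p = 0.551), and AT4G23820 at 5.70 ± 2.89 and 8.58 ± 2.83 FPKM (adjusted p = 0.422).

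The inhibitors had 0 of 14 changed between the lines by edgeR. An unadjusted p under 0.05 was found in 7, against 21.2% of all tested genes, DESeq2 called 4, against 12.2%, and limma called AT1G14890. Of the 14 tested inhibitors 6 were lower in all 3 VQ28OE9 libraries than in any VQ28KO12 library, against 14.4% of all tested genes. In the other direction there was 1, against 12.1%. The 4 that DESeq2 called, AT5G62350, AT5G62360, AT4G25260 and AT1G14890, were among the 6, but that call used these same libraries. AT5G62350, the most abundant member of all 93, stood at 398, 415 and 286 FPKM in VQ28KO12, 246, 197 and 216 in VQ28OE9 and 178, 279 and 256 in WT. The log2 fold change was -0.70 ± 0.20 (edgeR adjusted p = 0.0652). AT5G62360, the adjoining gene on chromosome 5, had the smallest p, with 42.9, 48.6 and 22.5 FPKM in VQ28KO12 and 17.6, 11.8 and 14.4 in VQ28OE9. Its log2 fold change of -1.34 ± 0.35 missed the threshold (edgeR adjusted p = 0.0525) and passed it in 6 of 19 alternative settings. AT4G25260 (-1.32 ± 0.35, adjusted p = 0.0533) and AT1G14890 (-0.76 ± 0.21, adjusted p = 0.0592) also missed it. In all 4, WT overlapped VQ28OE9. In AT5G62360, AT4G25260 and AT1G14890 WT also overlapped VQ28KO12, while in AT5G62350 every VQ28KO12 library was above every WT library.

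**Figure D4:**
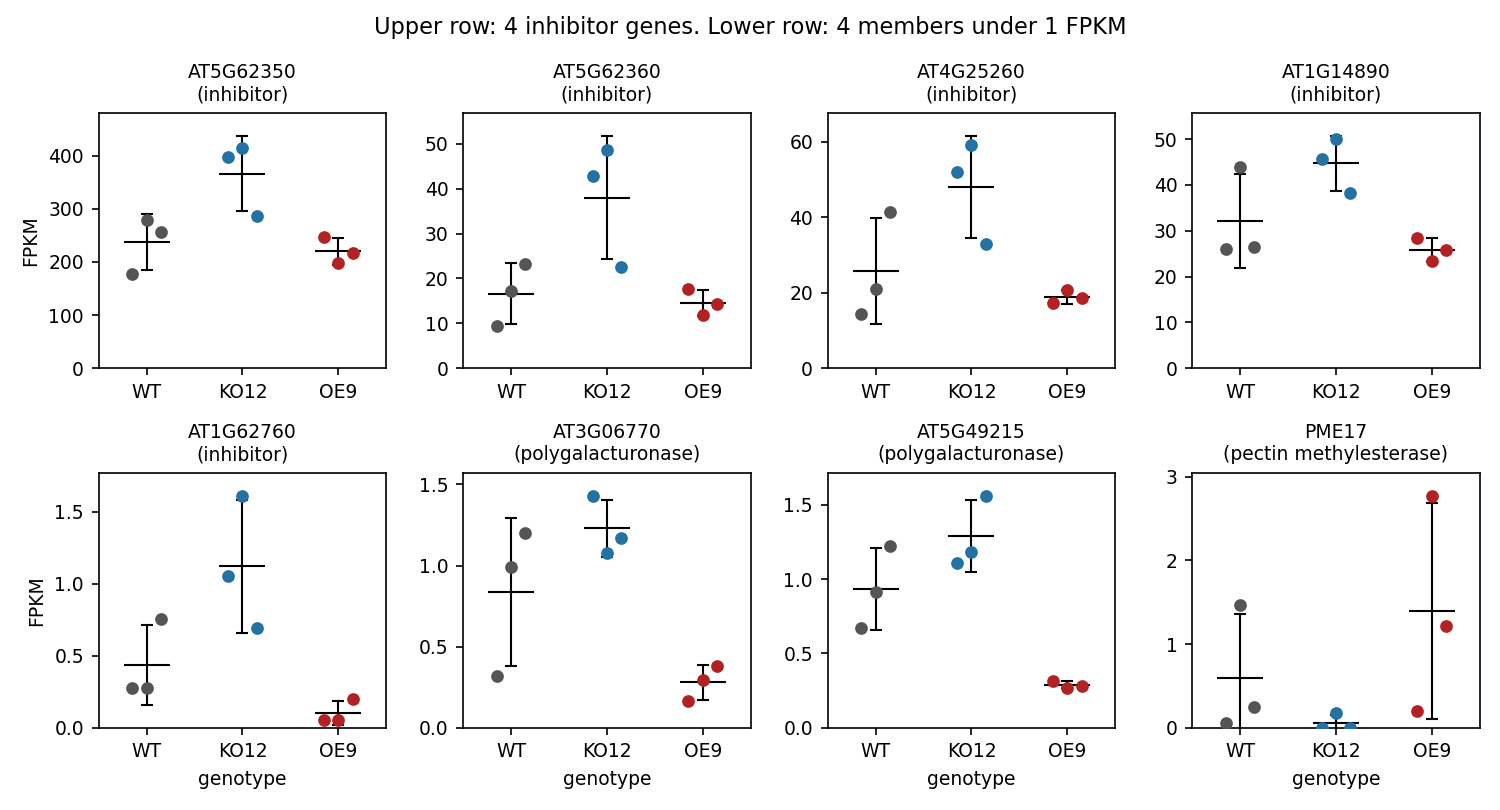
Points give the FPKM of each library by genotype (KO12, VQ28KO12; OE9, VQ28OE9), with the mean as a bar and the SD over 3 libraries as whiskers (cut at 0), for 4 inhibitor genes in the upper row and 4 members with a mean under 1 FPKM in the lower row. In the upper row VQ28KO12 has the highest mean of each gene, as in AT5G62350 at 366 ± 70.4 FPKM.

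Of the 11 tested pectate lyases 0 changed between the lines by edgeR, against 6.33% of all tested genes. An unadjusted p under 0.05 was found in 3, against 21.2%. DESeq2 called AT3G09540 and PMR6, against 12.2% of all tested genes, and limma called none. AT3G09540, with the smallest p, stood at 16.5, 15.8 and 12.5 FPKM in VQ28KO12 and at 9.95, 9.27 and 10.6 in VQ28OE9. These groups did not overlap, and the log2 fold change of -0.56 ± 0.16 had an edgeR adjusted p = 0.0721. The most abundant pectate lyases, AT3G55140, AT1G04680 and AT4G24780, had log2 fold changes of -0.21, -0.18 and -0.25 between the lines, with adjusted p from 0.447 to 0.738.

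In VQ28KO12 against WT 0 of the 66 tested members changed by edgeR, against 0.00623% of all tested genes, which is 1 gene. At an unadjusted p under 0.05 there were 10 members, against 5.03% of all tested genes, and DESeq2 (0.243% of all genes) and limma called 0 members. The log2 fold changes were positive in 33 and negative in 33, with a median of -0.0. The 14 tested inhibitors had a median of 0.33, with 9 positive and 5 negative. AT5G62360 had the smallest p of the inhibitors, with 42.9, 48.6 and 22.5 FPKM against 9.52, 17.1 and 23.2 in WT. The groups overlapped, through VQ28KO12 replicate 3 and WT replicate 3, and its log2 fold change was 1.13 ± 0.35 (edgeR adjusted p = 0.861).

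Of the methylesterases the smallest p between VQ28KO12 and WT was that of AT5G19730, whose 3 VQ28KO12 libraries were above all WT libraries (0.77 ± 0.22 on the log2 scale, edgeR adjusted p = 0.86). AT3G49220, the most abundant methylesterase, stood at 172, 173 and 160 FPKM in VQ28KO12 and at 90.6, 121 and 124 in WT. These did not overlap, and the log2 fold change was 0.54 ± 0.19 (adjusted p = 0.943). AT3G43270 lay the other way, at 50.5, 51.1 and 48.1 FPKM against 55.7, 88.8 and 66.3 in WT (-0.54 ± 0.25, adjusted p = 0.982). Among pectin acetylesterases AT3G09405 lay lower, at 1.43, 2.51 and 1.62 FPKM against 3.18, 3.27 and 3.31 in WT (-0.86 ± 0.25, adjusted p = 0.86). It shares 37 bases with its neighbour AT3G09410. Of the tested genes 8.0% were higher and 2.76% lower in all VQ28KO12 than in all WT libraries, and of the 66 members 6 and 2.

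Among polygalacturonases AT4G23820 had the smallest p, at 11.8, 6.49 and 7.45 FPKM against 7.21, 4.13 and 5.31 (0.58 ± 0.36, adjusted p = 1). Among pectate lyases it was AT3G27400, and there 1 library set the value. It stood at 0.856, 5.30 and 0.921 FPKM in WT and at 0.681, 0.914 and 0.551 in VQ28KO12. The log2 fold change of -1.77 ± 0.64 (adjusted p = 0.946) was -0.38 without WT replicate 2.

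**Figure D5:**
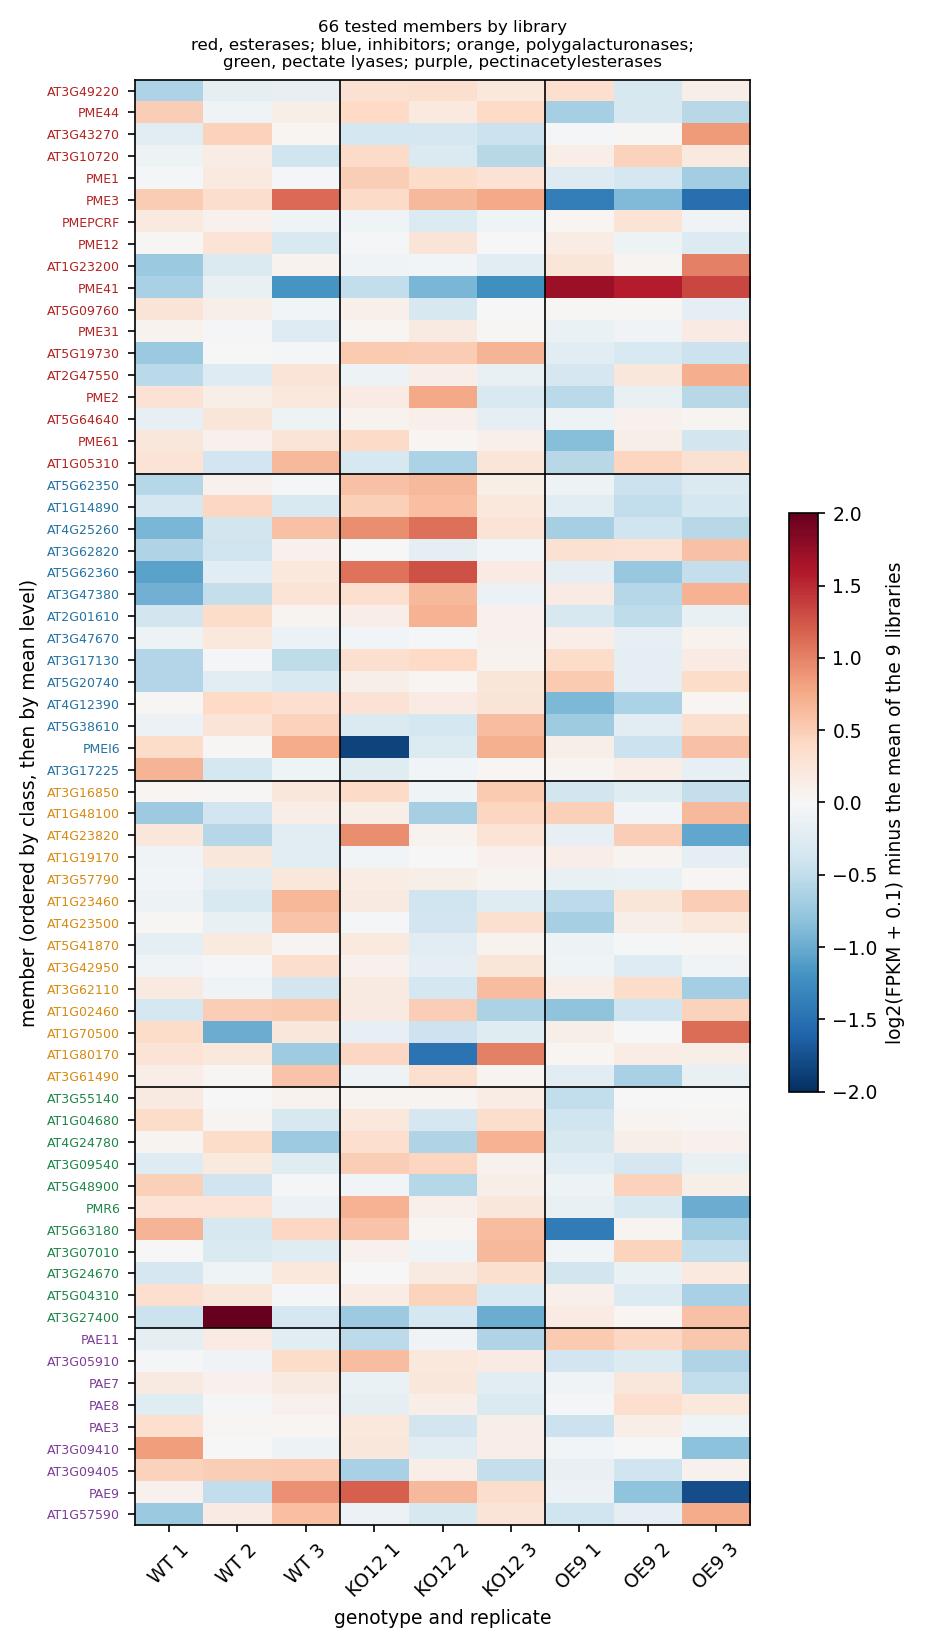
The 66 tested members are rows, ordered by class and then by mean level, and the 9 libraries are columns. Colour gives log2(FPKM + 0.1) minus the member's mean over the 9 libraries, from -2.0 to 2.0, and PME3 and PME41 stand out as the rows in which the 3 VQ28OE9 libraries differ most from the rest.

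Members varied more between libraries of a genotype than tested genes in general. The highest library of a genotype exceeded the lowest by a median of 1.51 times in WT, 1.37 in VQ28KO12 and 1.47 in VQ28OE9 over the 66 members, against 1.31, 1.32 and 1.33 over all tested genes. This difference was not tested, and levels differ between the sets. The widest spread was that of the inhibitor gene PMEI6, known from seed mucilage, at 0.282, 1.04 and 2.17 FPKM in VQ28KO12. AT1G80170, a polygalacturonase, followed with 1.52, 0.340 and 2.37 FPKM in the same line, and then AT3G27400 in WT.

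The 27 members between 0.1 and 1 FPKM were fitted only when the limit for testing was lowered to a mean of 0.1 FPKM, over 20028 genes. In VQ28OE9 against WT 1 of the 27 passed, where 1.59% of all genes did. In VQ28OE9 against VQ28KO12 3 passed, where 4.69% did. In VQ28KO12 against WT 0 passed, where 0.00499% did. AT5G49215, of the polygalacturonase class, stood at 0.672, 0.912 and 1.22 FPKM in WT, at 1.11, 1.18 and 1.56 in VQ28KO12 and at 0.317, 0.271 and 0.281 in VQ28OE9. The VQ28OE9 libraries were below all others, with a log2 fold change of -1.70 ± 0.33 against WT (edgeR adjusted p = 0.0411) and -2.12 ± 0.34 against VQ28KO12 (adjusted p = 0.0138).

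The other members called at that limit were AT1G62760 and AT3G06770, both lower in VQ28OE9 than in VQ28KO12. AT1G62760, an inhibitor gene, stood at 1.05, 1.61 and 0.694 FPKM in VQ28KO12 and at 0.0556, 0.0512 and 0.203 in VQ28OE9 (-3.28 ± 0.76, edgeR adjusted p = 0.0381). AT3G06770, of the polygalacturonase class, stood at 1.43, 1.08 and 1.17 FPKM against 0.168, 0.293 and 0.378 (-2.10 ± 0.49, adjusted p = 0.0402). In both, WT lay between the lines or overlapped them. In AT1G62760 90.2% of the 50-base stretches of its exons occur at 1 place in the genome, so its reads could be shared with a copy.

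Members known from other organs were near the limit. PME5, known from the shoot meristem, stood at 0.0666 to 0.689 FPKM over the 9 libraries, and QRT3, a polygalacturonase gene needed to separate pollen grains, at 0 to 0.223. QRT3 (chromosome 4, 10849782 to 10853346) is also the member nearest to VQ28 (10838310 to 10839142), and it did not follow it, with 0.0532, 0.194 and 0 FPKM in VQ28OE9 and 0.211, 0.0985 and 0.223 in WT. PME17, a methylesterase gene known to be induced by infection, stood at 0.0582, 1.47 and 0.249 FPKM in WT, at 0, 0.174 and 0 in VQ28KO12 and at 0.204, 2.77 and 1.21 in VQ28OE9. All VQ28OE9 libraries were above those of VQ28KO12, and WT overlapped both. AT3G27980 stood at 0.697, 0.813 and 0.384 FPKM in VQ28KO12 and at 0 to 0.193 in the other 6 libraries, but all 1958 bases of it overlap AT3G27990, and, since the sources do not say whether counting used the strand, the reads of both genes cannot be told apart.

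Other genes of the pectin pathway were counted from lists. Of 27 genes for pectin synthesis 26 were tested. The list held GAUT family galacturonosyltransferases, methyltransferase genes QUA2 and QUA3, epimerase genes GAE1 to GAE6, rhamnogalacturonan backbone gene RRT1 and synthases of side chains. In VQ28OE9 against WT 0 changed by edgeR, 5 had an unadjusted p under 0.05 (17.4% of all tested genes did), DESeq2 called 3 (8.46% of all genes) and limma 0. Their median log2 fold change was -0.08, beside -0.14 for the members. In VQ28KO12 against WT 0 changed, 0 had an unadjusted p under 0.05 and DESeq2 and limma called 0. Between the lines 1 of the 26 changed by edgeR (6.33% of all tested genes), 7 had an unadjusted p under 0.05 (21.2%), DESeq2 called 4 (12.2%) and limma 1. The 1 that changed was GALS1, a synthase of pectic galactan, at 6.23, 4.75 and 4.54 FPKM in VQ28KO12, 4.08, 4.10 and 5.48 in WT, and 2.81, 2.48 and 2.86 in VQ28OE9. The VQ28OE9 libraries were the lowest of the 9, with a log2 fold change of -0.90 ± 0.19 against VQ28KO12 (edgeR adjusted p = 0.0251). No gene of the list passed, GALS1 included, without VQ28KO12 replicate 1 or 3 or without VQ28OE9 replicate 1 or 2.

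Of 12 genes for sensing pectin and handling its fragments 7 were tested, and WAK5 and OGOX3 had no counts in any library. In VQ28OE9 against WT 0 of the 7 changed by edgeR, 3 had an unadjusted p under 0.05 (17.4% of all tested genes), DESeq2 called 1 (8.46%) and limma 0. In VQ28KO12 against WT 0 changed, 0 had an unadjusted p under 0.05 and DESeq2 and limma called 0. Between the lines 1 of the 7 changed by edgeR (6.33% of all tested genes), 2 had an unadjusted p under 0.05 (21.2%) and DESeq2 called 2 (12.2%). The 1 that changed was OGOX1, which encodes an oxidase that inactivates oligogalacturonides, the pectin fragments that act as alarm signals. It stood at 158, 232 and 152 FPKM in VQ28KO12, 190, 240 and 160 in WT, and 392, 298 and 324 in VQ28OE9. Those of VQ28OE9 were above all others, by 0.93 ± 0.21 on the log2 scale against VQ28KO12 (edgeR adjusted p = 0.0296) and 0.76 ± 0.21 against WT (adjusted p = 0.0855). OGOX2, the other tested oxidase gene of the list, lay the other way and did not pass. It stood at 2.03 to 2.39 FPKM in VQ28OE9 and 2.90 to 4.76 in WT (-0.74 ± 0.28, edgeR adjusted p = 0.199). No gene of the list passed between the lines without VQ28KO12 replicate 1 or 3 or without VQ28OE9 replicate 1 or 3.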

How the data were processed

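Poly(A) RNA libraries made with dUTP strand marking were sequenced in pairs, per the labels' protocols. The authors deposited 1 table with an FPKM and a whole-number count per gene and library, per the file headers. Neither the aligner, the counting tool, its strand setting nor the build is given in the sources used here. The deposited values behave as estimated counts: among those from 1 to 16, 48.7% to 57.0% can be divided by 4. Genes listed at an FPKM of 0.0001 have no counts and are given as 0.

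Counts were fitted as deposited with edgeR 4.0.16 (R 4.3.3; TMM, glmQLFit, all 9 libraries, 1 mean per genotype taken from the sample titles), two-sided, over the 16050 genes that averaged 1 FPKM or more. Standard errors are |log2 fold change| over the root of F. The steps were tested on simulated data. The 19 alternatives include DESeq2 1.42.0, limma 3.58.1 on log2(FPKM + 1) and on log2(FPKM + 0.1), other filters and each library left out. Intervals are not given.

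The members and gene lists were chosen with earlier results of these data known. Named members were those that changed, the one with the smallest p and the 3 most abundant of each class, those near the limit, those with the widest spread, and the neighbour of VQ28. Others (AT1G14890, AT4G25260 between the lines, PME1 against WT, PME2, AT4G02320, PAE8, PAE9, PME5, PME17 and AT3G27980) were chosen after their values were seen. Of the gene lists, OGOX2 was also named after its values were seen. Pectin acetylesterases were classed by their descriptions. Methylesterases, polygalacturonases and pectate lyases were classed by the gene ontology terms of the deposited table. The inhibitor class holds the genes described as inhibitors that carried none of those terms. These steps took the place of a planned search of protein sequences, which were not used here. All 93 members were matched by locus to RefSeq's TAIR10.1 table for names. Coordinates of genes are those of the deposited table, whose build is not named, and 50.8% of 28920 shared loci have a start or end equal to RefSeq's. AT4G20000 stands for VQ28, after the numbering published for VQ genes. Exons of 88 of the 93 members are unique in the genome at 50 bases, with a lowest value of 81.2% in AT3G27980. Promoter sequences of the other changed members are not reported here.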

Additional observations from a re-analysis of the deposited data

How the results depend on the processing

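Of the 22 member values recomputed under the 19 alternatives none changed sign. The values of other named genes were not recomputed singly. In VQ28OE9 against WT the count of changed members was 3, DESeq2 gave 7, leaving out 1 library gave 2 to 3, and the fit with the replicate block gave 2, without PME44 (adjusted p = 0.0576). In VQ28KO12 against WT the count was 0 in every alternative, the leave-one-out range of 0 to 0 included. In VQ28OE9 against VQ28KO12 it was 8, DESeq2 gave 16, leaving out 1 library gave 2 to 11, and the replicate block gave 6, 5 of the 8 and 1 other, without AT3G05910, AT5G19730 and AT3G16850. The counts of pectin synthesis genes were 0 in VQ28OE9 against WT (DESeq2 3, leave-one-out 0 to 1) and 1 between the lines (DESeq2 4, leave-one-out 0 to 2, replicate block 2, and 4 without WT replicate 3 and VQ28OE9 replicate 3 together). Those of sensing genes were 0 against WT (DESeq2 1) and 1 between the lines (DESeq2 2, leave-one-out 0 to 2, replicate block 1). In VQ28KO12 against WT both lists gave 0 in each of these. The cause of these shifts was not tested, and the leave-one-out fits also have fewer samples. The labels do not say whether replicate numbers pair the samples. Deviations from genotype means correlated between -0.231 and 0.414 in same-numbered libraries of different genotypes, and between -0.407 and 0.395 in differently numbered ones. The highest value was that of WT replicate 3 with VQ28OE9 replicate 3, so these correlations do not settle whether a batch was shared. Of the single-member values under alternatives, 360 kept their side of the threshold, 48 no longer passed and 10 newly passed. At 3 libraries per genotype, a member that did not pass is not shown to be the same in both groups.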
